A study of Bos taurus with 27 samples.

Results

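The comparison described here sets calves whose first colostrum was delayed against calves that received it at birth, and asks whether any delay left a mark on the transcripts of the ileum. All 27 libraries of the series entered it: 18 from delayed calves, 9 of them fed 6 h and 9 fed 12 h after birth, and 9 from calves fed immediately (0 h). The members were taken from the labels, by feeding time, and not from any measured value. The animals were male Holstein calves, assigned to a feeding time at random, and the ileum was taken at 51 h of age in every group. Every library is a different calf, and the SD of a group is therefore a spread between animals. At equal age, the calves fed at 6 h and 12 h had also had fewer hours since their first meal, and these 2 features of the design cannot be told apart.

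Colostrum is the first milk of the cow. The calf is born almost without circulating antibodies, because the bovine placenta does not pass them, and takes up maternal immunoglobulin through enterocytes of the small intestine until these stop absorbing intact protein, a change known as gut closure. The ileum, the final stretch of the small intestine, also absorbs bile acids and in the young ruminant holds a large Peyer's patch in which B cells multiply.

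The 24616 genes of the count table carry Ensembl cattle identifiers without names, and 0 identifiers were found in the gene table used as reference. Genes are therefore given by identifier, without position or sequence, and what each of them does is not stated. The tissue label could not be set against marker genes, and none of the 34 gene lists could be applied. In whole tissue, fewer cells of a type and less RNA per cell cannot be told apart.

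Library totals ran from 972578 to 7125552 counts. The delayed groups lay on either side of the immediate group in depth. The mean log2 total of the 0 h calves was 20.78 ± 0.56 (SD, n = 9). It was lower in the 6 h calves, at 20.37 ± 0.39, and higher in the 12 h calves, at 21.31 ± 0.94. Pooled, the 18 delayed calves had a mean of 20.84 ± 0.85, which differed from the 0 h calves by 0.06 (two-sided exact permutation p = 0.855, adjusted p = 0.997 over 8 measures). A library that stood apart was replicate 7 at 12 h, the deepest, which gave 42.7% of its counts to its 10 most abundant genes.

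No gene was higher or lower in delayed than in immediately fed calves after adjustment. edgeR's quasi-likelihood test, with the 3 groups fitted together and the mean of both delayed groups set against the 0 h group, called 0 of 11429 genes (0%) at an adjusted p under 0.05, and the smallest adjusted p was 0.433. limma voom also called 0, and DESeq2 called 2 of 22939 (0.00872%), 1 higher and 1 lower. Before adjustment, 387 genes had a p under 0.05 in edgeR, 3.39% of those tested, where 571 would be 5%, and they are called listed genes below. Of the tested genes, 1.85% were listed as higher (212) and 1.53% as lower (175). Without replicate 7 at 12 h, the deepest library, 339 genes were listed and 0 were called. Below an unadjusted p of 0.01 there were 54 genes, where 114 would be 1%. Unadjusted p-values near 0 were the rarest of all, as the histogram of p-values shows.

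**Figure D1:**
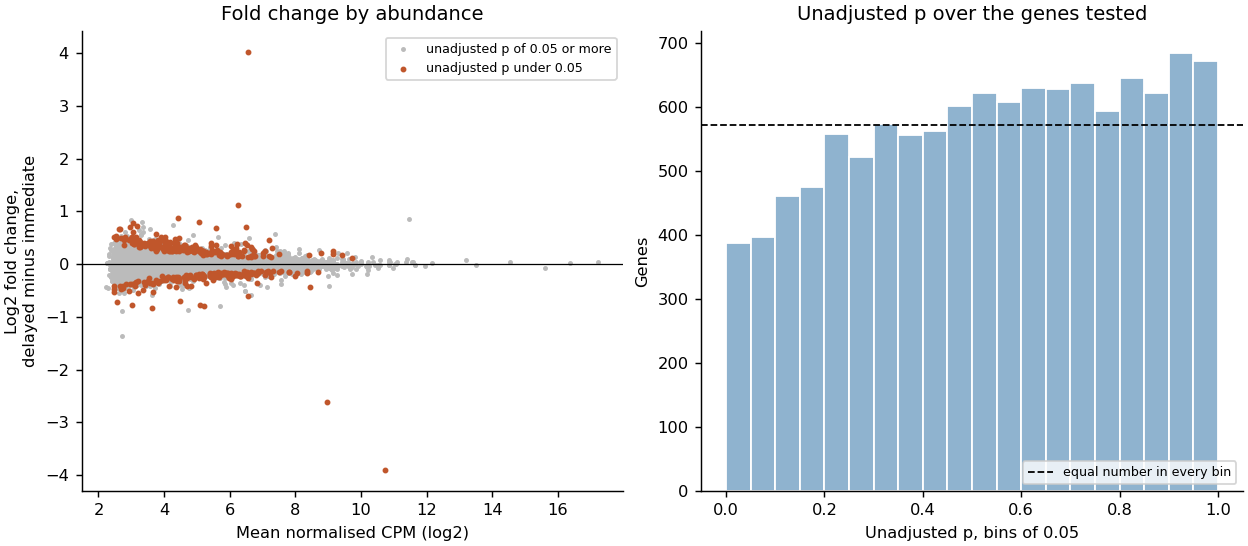
Left, log2 fold change of delayed minus immediate feeding (vertical) against mean normalised CPM on a log2 scale (horizontal), 1 point per gene, with the 387 genes at an unadjusted p under 0.05 in orange. Right, the number of the 11429 genes in each bin of unadjusted p, where the bin nearest 0 holds 387 and the dashed line marks 571, an equal number in every bin.

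The fold changes were small next to their errors. Over all genes, fold changes had a median size of 0.07 and a median standard error of 0.122 on the log2 scale. Pooling the delayed groups gave the smaller error, since the same median was 0.145 for 6 h alone and 0.137 for 12 h alone against 0 h. For 98.8% of the genes the 95% confidence interval of delayed against immediate feeding held no change of 2-fold or more, up or down. The same was true of a 1.5-fold change for 89.8% of the genes and of a 1.25-fold change for 46.9%. For 345 genes edgeR gave a p larger than the statistic behind the interval, so their intervals are too narrow. An estimate beyond 1.5-fold was seen for 34 genes, 21 of them among the 387 listed, and none of these passed the adjustment. Beyond 2-fold were 5 genes, 4 of them listed. The largest log2 fold changes were 4.01 (SE 1.62) for ENSBTAG00000047370 and -3.90 (SE 1.38) for ENSBTAG00000047042. Only 3 of the 18 delayed calves lay above the highest 0 h calf in the former, and 4 below the lowest in the latter. The median log2 change in size of the listed genes was 0.27.

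Separation between calves was incomplete for every gene tested. There were 0 genes with all 18 delayed calves above all 9 immediate calves and 0 with all of them below. The most delayed calves found above the highest immediate calf was 15, and the most found below the lowest was 14.

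By the rule for naming, the 2 higher and the 2 lower identifiers with the smallest p are described with their values, in normalised CPM (each library's counts brought to 1 common total). None of the 4 passed the adjusted test, and picking the extremes of 11429 genes overstates fold changes.

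ENSBTAG00000001027 had the smallest p of the comparison. It ranked 827th of 11429 in mean abundance, with 99 to 960 counts per library. In the 9 calves fed at 0 h it ran from a lowest value of 87.7 CPM through a median of 114.1 to a highest of 143.6. At 6 h the lowest, median and highest were 109.1, 152.4 and 206.3 CPM, and at 12 h they were 145.1, 162.1 and 221.8. All 9 calves fed at 12 h and 5 of the 9 fed at 6 h lay above the highest 0 h calf, so that the pooled groups overlapped through 4 calves fed at 6 h. The means were 117 ± 17.9, 150 ± 31.3 and 174 ± 28.8 CPM (SD, n = 9). For delayed against immediate feeding the log2 fold change was 0.46 (SE 0.097), a fold of 1.37 with a 95% confidence interval of 1.20 to 1.57 (edgeR unadjusted p = 3.8e-05, adjusted p = 0.433).

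The level of ENSBTAG00000001027 was ordered by feeding time, but the neighbours 6 h and 12 h did not differ beyond their error. The log2 fold change was 0.35 (SE 0.111) for 6 h and 0.56 (SE 0.109) for 12 h against the same 0 h calves. Between 12 h and 6 h it was 0.21, with a 95% confidence interval of -0.01 to 0.43 (edgeR unadjusted p = 0.0607, adjusted p = 0.926). Whether this gene passed the adjustment for delayed against immediate feeding depended on the fit. DESeq2 called it at an adjusted p of 0.0486, and edgeR with 2 surrogate variables, which stand for unlabelled variation between calves, at 0.000317. The 2 variables were estimated from these same counts with the feeding groups in the model. The test then took them as known, so the error in estimating them does not enter that p. With them, 635 genes were listed in place of 387. Over the 12 alternatives other than leaving out a calf, the adjusted p of ENSBTAG00000001027 ran from 0.000317 to 0.999 and its log2 fold change from 0.42 to 0.48. In DESeq2 the call was lost in 17 of 27 fits that left out 1 calf, 5 of these calves fed at 12 h, 6 at 6 h and 6 at 0 h, with an adjusted p of up to 0.536 (without replicate 2 at 0 h).

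**Figure D2:**
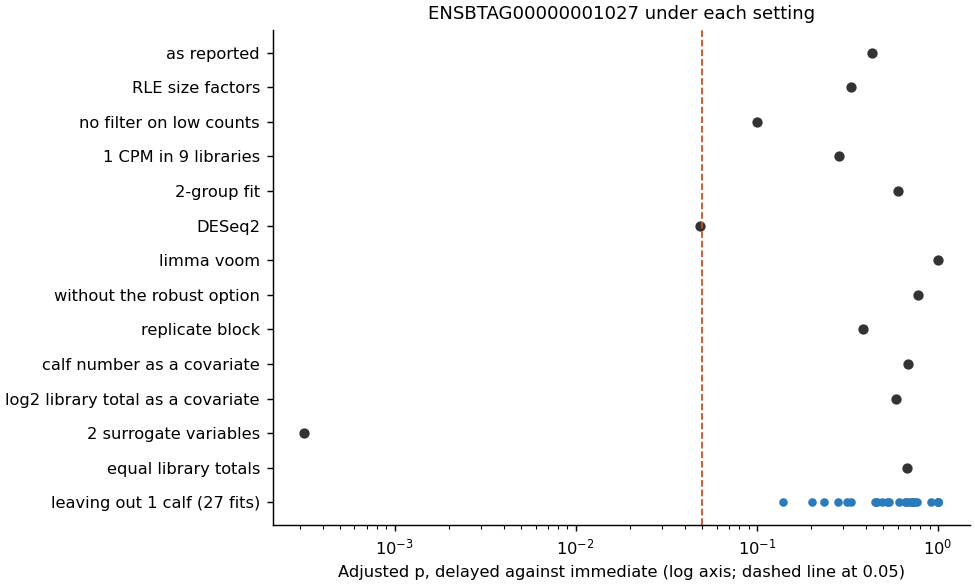
Adjusted p of ENSBTAG00000001027 for delayed against immediate feeding (horizontal, log axis) under each setting (vertical); black points are single fits, blue points the 27 fits that each left out 1 calf. Only DESeq2 (0.0486) and the fit with 2 surrogate variables (0.000317) lie left of the dashed line at 0.05.

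ENSBTAG00000011284 was the other identifier on the higher side, with a smaller change and a tighter spread. At 0 h its lowest, median and highest values were 49.7, 60.1 and 68.4 CPM, at 6 h 61.9, 71.2 and 82.1, and at 12 h 65.4, 70.3 and 88.7. Of the 18 delayed calves, 15 lay above the highest 0 h calf, 7 of them fed at 6 h and 8 at 12 h, and all 18 lay above the median of the 0 h calves. No gene tested had more delayed calves above the 0 h range, and 1 other had as many. The log2 fold change was 0.27 (SE 0.0682), a fold of 1.20 with a 95% confidence interval of 1.09 to 1.32 (edgeR unadjusted p = 0.000385, adjusted p = 0.999).

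Both delayed groups stood at nearly the same level of ENSBTAG00000011284. Against 0 h the log2 fold change was 0.27 (SE 0.0793) at 6 h and 0.27 (SE 0.077) at 12 h. The difference between 12 h and 6 h had a 95% confidence interval of -0.16 to 0.15 on the log2 scale. Both bounds were smaller in size than the pooled change of 0.27, so a further step of that size from 6 h to 12 h was outside the interval.

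ENSBTAG00000021568 had the smallest p among the identifiers that were lower after delay. It was a low-abundance gene, ranked 10428th of 11429, with 5 to 43 counts per library, so counting error takes a large share of its spread. Its lowest, median and highest values were 6.00, 10.7 and 15.1 CPM at 0 h, 4.4, 5.95 and 9.45 at 6 h, and 1.85, 6.87 and 11.4 at 12 h. Of the 18 delayed calves, 17 lay below the median of the 0 h calves and 7 below the lowest of them. The log2 fold change was -0.77 (SE 0.197), that is 1.71-fold lower (edgeR unadjusted p = 0.000383, adjusted p = 0.999). It was -0.87 (SE 0.247) at 6 h and -0.67 (SE 0.218) at 12 h, each against 0 h. The 12 h and 6 h groups differed by 0.20 (95% confidence interval -0.31 to 0.71).

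ENSBTAG00000002516 was also of low abundance, with 2 to 64 counts per library. At 0 h its lowest, median and highest values were 8.79, 11.3 and 16.3 CPM, at 6 h 2.1, 6.6 and 10.1, and at 12 h 6.17, 8.79 and 11.4. Below the lowest 0 h calf lay 7 of the 9 calves fed at 6 h and 4 of the 9 fed at 12 h, so the pooled difference came more from the 6 h group. The log2 fold change of delayed against immediate feeding was -0.54 (SE 0.154), 1.46-fold lower (edgeR unadjusted p = 0.00117, adjusted p = 0.999). Against 0 h it was -0.76 (SE 0.193) at 6 h and -0.33 (SE 0.168) at 12 h. The calves fed at 12 h stood above those fed at 6 h by 0.44 on the log2 scale, which did not hold after adjustment (SE 0.19, edgeR unadjusted p = 0.0278, adjusted p = 0.926).

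**Figure D3:**
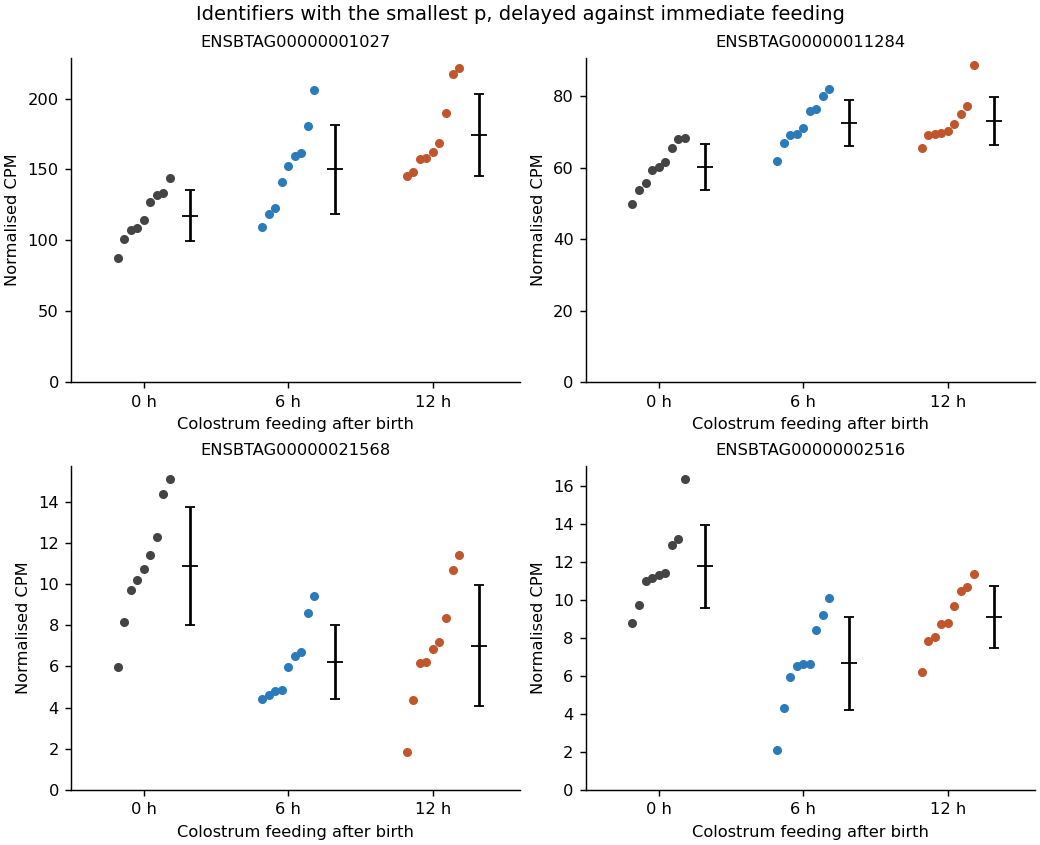
Normalised CPM (vertical, from 0) of the 4 named identifiers by feeding time; each point is a calf, and bars show mean and SD (n = 9). ENSBTAG00000001027 and ENSBTAG00000011284 are higher in most delayed calves, ENSBTAG00000021568 and ENSBTAG00000002516 lower, and in each gene the delayed calves overlap the 0 h calves.

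**Figure D4:**
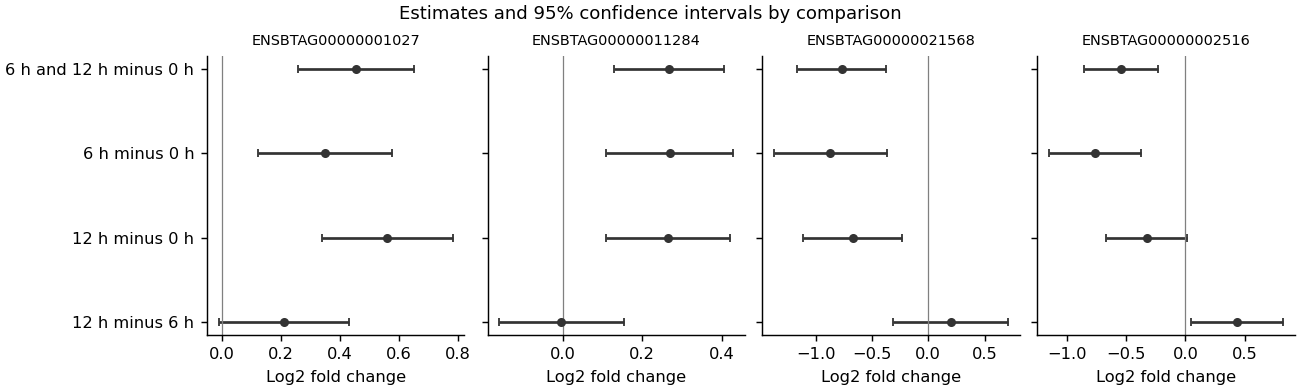
Log2 fold changes (points) with 95% confidence intervals (bars) of the 4 named identifiers in 4 comparisons; positive values mean higher in the group named first. ENSBTAG00000011284 has 0.27 in each delayed group, and the interval of 12 h minus 6 h includes 0 in all but ENSBTAG00000002516, where it runs from 0.05 to 0.82.

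The gene that DESeq2 called lower, ENSBTAG00000045494, was named after its values were seen. The filter on low counts kept it out of edgeR's test. It was near the detection limit in most calves and very high in 1 or 2 of each group. The median of the 0 h calves was 4.29 CPM, that of the 6 h calves 0.673 and that of the 12 h calves 1.37, while 2 calves fed at 0 h held 5256 and 453 CPM, 2 fed at 6 h held 1830 and 1164, and 1 fed at 12 h held 658. Calves above 100 CPM were thus 2 of 9 among the immediate and 3 of 18 among the delayed.

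DESeq2 gave ENSBTAG00000045494 a log2 fold change of -4.86 (SE 0.937, adjusted p = 0.00492). In that fit DESeq2 had replaced 4 of the 5 high counts as outliers, those of the calves at 5256, 1830, 1164 and 658 CPM, by 2 to 9 counts, and had kept the count of the 0 h calf at 453 CPM (replicate 4). Without that calf the log2 fold change was -0.78 (DESeq2 adjusted p = 1), and without replicate 2 at 0 h it was also -0.78 (adjusted p = 1). The call was made in the other 25 of 27 fits that left out 1 calf. When edgeR tested all genes with a count, this one included, it called 0 of 22939.

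Genes at an unadjusted p under 0.05 for delay were set beside the difference between the delayed groups. The means of that difference use none of the 0 h calves, but both tests share 1 estimate of the spread per gene, to which the 0 h calves contribute, so they are not independent. Between 12 h and 6 h, 585 genes, 5.12% of those tested, stood at an unadjusted p under 0.05 and 0 passed the adjustment (smallest edgeR adjusted p = 0.889). Of the 387 genes listed for delay, 30 (7.75%) were also listed there. That the remaining listed genes had a larger p there does not show that both delayed groups were alike.

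The direction of the listed genes varied with abundance. When the tested genes were divided into 3 equal sets by mean CPM, the lowest (4.72 to 17.5 CPM) held 79 genes listed as higher after delay and 40 as lower. The middle set (up to 44.3 CPM) held 75 and 53, and the highest set 58 and 82. The listed share was alike, at 3.12%, 3.36% and 3.67%. The sets' median log2 fold changes were near 0, at 0.01, -0.001 and -0.01 from lowest to highest. With every library drawn down to the same total of 972578 counts, the pairs of numbers became 69 and 46, 62 and 59, and 59 and 62, and so were nearly even in the middle and highest sets. With the log2 library total as a covariate they were 73 and 40, 75 and 51, and 54 and 73. With 2 surrogate variables the highest set held 93 and 186, with limma voom the lowest held 79 and 64, and without replicate 8 at 0 h the highest held 74 and 71. Genes are not independent replicates, and no test was made of this split, which was looked at after the results were seen.

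No measure of whole libraries passed the test for delay. Drawn down to equal totals, a library showed 15391 ± 354 genes with a count at 0 h (SD, n = 9) and 15594 ± 449 after delay (SD, n = 18). The difference of 203 genes had a two-sided exact permutation p of 0.249 over all 4686825 ways to choose 9 of 27 calves (adjusted p = 0.997). Without replicate 3 at 0 h, which stood apart at 16212 genes, the difference was 305.5 (exact permutation p = 0.0776, adjusted p = 0.621). The 6 h calves had 15719 ± 512 and the 12 h calves 15469 ± 362, a difference that was not tested. The most abundant gene took 14.9% ± 1.69 of the counts at 0 h and 15.3% ± 1.64 after delay (exact permutation p = 0.558, adjusted p = 0.997). Principal components 1 and 2 of log2 CPM, with 15.9% and 9.20% of the variance, had exact permutation p of 0.972 and 0.951 for their scores (adjusted p = 0.997 for both).

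No difference was found in how far calves lay from the others of their own group. The distance of each calf was taken from the mean of the other 8 calves of its own group, as a root mean square over genes of log2 CPM. It was 0.399 ± 0.0496 at 0 h (SD, n = 9) and 0.399 ± 0.0593 after delay (SD, n = 18, permutation p = 0.997). The distances depend on the real groups and were kept fixed over the splits, so this p is approximate and not exact. By group it was 0.430 ± 0.0478 at 6 h and 0.368 ± 0.0546 at 12 h, and the shallower libraries lay farther from their group. At equal totals the 0 h calves had a mean of 0.422 ± 0.0191, the 6 h calves 0.428 ± 0.0284 and the 12 h calves 0.416 ± 0.0183, so that the gap between the delayed groups narrowed.

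**Figure D5:**
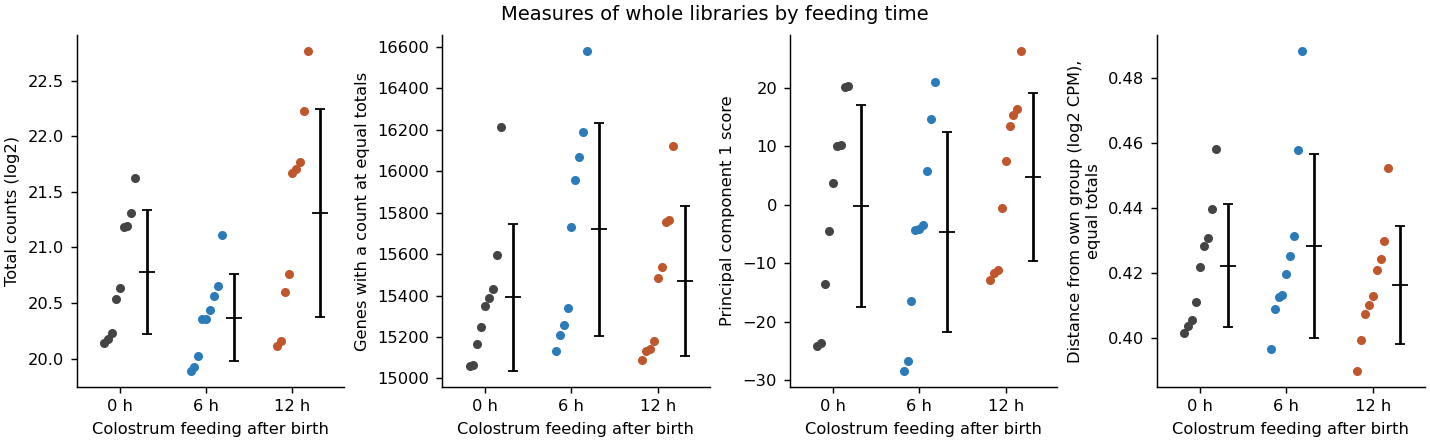
Log2 total counts, genes with a count at equal totals, score on the first principal component and distance from the own group at equal totals (vertical axes, not from 0) by feeding time; each point is a calf, and bars show mean and SD (n = 9). Totals are lowest at 6 h and highest at 12 h (means 20.37 and 21.31 against 20.78 at 0 h), while the 3 groups overlap on every measure.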

How the data were processed

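The authors deposited 1 table of raw counts, whole numbers per gene for 27 libraries. Per the submitters' processing notes, TopHat2 2.1.1, TopHat, SAMtools 1.4, HTSeq and the build UMD3.1 were used; their roles, the annotation release, strand counting and multi-mapped reads were not given in the sources used here, so genes with near-identical copies are uncertain. The labels name a library kit that does not keep strand, so antisense partners are not distinguished. All 27 columns were matched by calf name, and 0 rows named no gene.

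edgeR 4.0.16 in R 4.3.3 kept genes by filterByExpr (minimum count 10, minimum total 15), leaving 11429 and removing 13187, of which 1677 had no count. Totals were scaled by TMM. A robust quasi-likelihood model was fitted to the 3 groups, and the mean of 6 h and 12 h minus 0 h was tested with Benjamini-Hochberg adjustment over all genes kept, at 0.05. Log2 CPM used a prior count of 2. Library measures were tested by exact permutation and adjusted over 8 measures. For the distance from the own group the permutation p is only approximate, since the distances were not recomputed for each split. The fit was also run on simulated data with changes of known size. The outcome is not given here, so how small a change the test could call is not stated. A check of all 351 library pairs for repeated deposits gave a chi-square per gene of at least 2.06, where sampling alone gives about 1, and found none.

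Named identifiers are the 2 higher and 2 lower with the smallest p. The comparison, the lists and the tests were chosen with earlier results of these data known. Alternatives used DESeq2 1.42.0, limma 3.58.1 voom, sva 3.50.0 and other settings. Figures were drawn in Python 3.11.15.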

Additional observations from a re-analysis of the deposited data

Results flagged for a closer look

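Each library measure and each identifier with values by calf was examined in each feeding group for a calf set apart, that is, 1 whose gap to the next calf took an unusual share of the group's range. Of these 39 sets 5 held one. The cutoff marks about 1 set in 20 for normally distributed values. The sets share the same calves, and CPM and shares need not be normal, so the number is not a test against that rate. Both sets of ENSBTAG00000045494 among the 5 belong to an identifier named after its extreme values were seen, and without it 3 of 36 sets held one. Replicate 3 of the 0 h group showed 16212 genes at equal totals (next calf 15594). In the same group, replicate 7 had the lowest share of counts in its 10 most abundant genes, 30.1% (next 33.6%), and in the 12 h group replicate 7 had the highest, 42.7% (next 36.9%). For ENSBTAG00000045494, replicate 2 of the 0 h group reached 5256 CPM (next 453) and replicate 5 of the 12 h group 658 CPM (next 5.41). The 4 identifiers named by the smallest p held no such calf in any group.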

How the results depend on the processing

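The 0 genes called for delayed against immediate feeding became 2 in DESeq2 and 1 with 2 surrogate variables. They were 0 under the other 11 alternatives and in all 27 edgeR fits that left out 1 calf. DESeq2 fits that left out 1 calf called from 0 genes (without replicate 2 at 0 h) to 3 (without replicate 6 at 6 h, among others). Some called genes that DESeq2 did not call with all calves. These were ENSBTAG00000047042 (lower, without replicate 6 at 6 h, among others) and ENSBTAG00000046133 (higher, without replicate 4 at 0 h, DESeq2 adjusted p = 3.6e-11). The 387 of 11429 genes at an unadjusted p under 0.05 became 1010 of 22939 without a filter on low counts. With 2 surrogate variables they became 635 (cause not tested). DESeq2 gave 500 of 22939, a filter of 1 CPM in 9 libraries 494 of 14983, and the other alternatives 339 to 440 of 11429. Leaving out 1 calf gave 339 (without replicate 7 at 12 h) to 449 (without replicate 2 at 6 h). With limma voom the split of higher and lower was 216 and 224 in place of 212 and 175, and with 2 surrogate variables 291 and 344. The log2 fold changes of the 4 named identifiers kept their sign in every fit. With the replicate number as a block (replicate block), 339 genes were listed and 0 called. Replicate numbers follow the order of calf numbers within each group. No pairing by number was seen over all genes together. Same-numbered calves deviated from their group means with correlations of -0.301 to 0.265 over 27 pairs. Their median was -0.044, against -0.013 over the 216 other pairs, and a calf correlated best with its own number in 5 of 54 cases. A weaker effect shared by same-numbered calves was not tested.

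No difference in a whole-library measure passed the adjusted test in any setting. When 1 calf was left out, 5 of the 8 measures changed sign in at least 1 fit, and 3 did not: genes with a count (148 to 531), genes with a count at equal totals (145 to 306, the highest without replicate 3 at 0 h) and the share of the most abundant gene (0.103 to 0.697 percentage points). The difference in distance from the own group went from 9.2e-05 to -0.00153 with a prior count of 0.5 and to -1.6e-05 at equal totals, and ran from -0.0126 to 0.00784 when 1 calf was left out. Leaving out 1 calf gave ranges of -0.0553 to 0.164 for the log2 total, -2.77 to 2.78 and -1.84 to 1.78 for the scores on both principal components, and -0.401 to 0.433 percentage points for the share of the 10 most abundant genes. Low counts limit the 2 lower identifiers most, with as few as 2 counts in a library.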
